A study of Mus musculus with 14 samples.

Results

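The acinar digestive enzymes and factors are 35 genes that the acinar cell of the exocrine pancreas is known for. They were taken by symbol from the 37310 gene identifiers in 3 tables of raw counts from mouse pancreatic β-cells and islets. Each symbol matched 1 identifier. The set holds 30 genes of secreted or zymogen granule proteins, here called the secreted members: 6 trypsinogens, 7 chymotrypsinogens and elastases, 2 carboxypeptidases, 5 lipases and colipase, 3 amylases and ribonuclease, 5 zymogen granule and other secreted proteins and 2 Reg proteins. The other 5 are the transcription factors Bhlha15, Ptf1a, Nr5a2 and Rbpjl and the creatine synthesis enzyme Gatm.

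Acinar cells make up most of the pancreas and release digestive enzymes, many as inactive zymogens, into the ducts that lead to the gut. Trypsin formed in the gut activates the other zymogens. PTF1A, with its partner RBPJL, and NR5A2 bind the enzyme genes, while BHLHA15 (MIST1) organises the secretory machinery of acinar and several other secretory cells. Islets are taken out of this exocrine tissue, so their preparations can carry acinar cells or acinar RNA. In bulk RNA, carried-over acinar material and transcription of these genes in islet cells cannot be told apart, and neither can fewer cells of a type and less RNA per cell.

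The libraries fall into 6 groups. The first table holds β-cells of wild-type mice, 3 libraries at postnatal day 6 (neonatal) and 3 at day 45 (adult). The second holds whole islets of mice 8 weeks old, 2 libraries labelled RC control and 2 labelled TSC1 KO, which the series' design text places in the β-cell. TSC1 is an inhibitor of the growth kinase complex mTORC1. The third holds whole islets of mice 4 weeks old, 2 labelled BKS control and 2 labelled Db. The db allele is known as a mutation of the leptin receptor and leads to obesity and diabetes. All 14 libraries carry the strain label C57BL/6. The sources used here do not say what RC and BKS mean, which Cre driver and Tsc1 allele were used, the db zygosity or how the β-cells were obtained. They also do not say that libraries of a group are from different mice. The p-values therefore rest on library-to-library spread, part of which may be technical.

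Gene counts ranged from 3507929 to 17688772 per library. Tsc1 did not separate its groups, with 25.1 and 54.1 CPM in RC control and 31.0 and 34.4 in TSC1 KO (log2 fold change -0.28 ± 0.38, adjusted p = 0.638), so directions in that comparison rest on the labels. Lepr had 11 and 2 counts in BKS control and 1 and 4 in Db, too few for a test. The summed level of 9 β-cell markers was 254201 and 289910 CPM in RC control and 12517 and 11364 in TSC1 KO, and mitochondrial genes took 12.4% and 9.05% of counts in RC control and 39.8% and 46.8% in TSC1 KO. In the β-cell libraries the same markers summed to between 25204 and 82983 CPM. In BKS islets they summed to 620760 and 708577 CPM in control and 529433 and 498667 in Db.

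The promoters of some members hold matches to both elements of a site known to be bound by the PTF1 complex, an E-box and a TC-box. The elements were searched as CACCTG and TTTCCCA on either strand in the 250 bases before the gene's start. Any distance between the 2 motifs was allowed, so a promoter with both need not hold them as 1 site. The promoter sequences are from RefSeq (GRCm38.p6), which matched 29 of the 35 members. Both motifs were present in 4 of these 29 (13.79%), against 1.154% of 27025 promoters of the same length. CACCTG alone was in 18 of 29 (62.07%), against 17.1% of all, and TTTCCCA in 7 of 29 (24.14%), against 6.794%. AAGGTCA, a motif known for NR5A2, was in 4 of 29 (13.79%), against 4.052%, and CATATG, an E-box known for BHLHA15, was in 0 of 29, against 3.475%. Motif matches are descriptions of these windows and not sites of binding. The 4 promoters with both motifs are those of the elastases Cela2a and Cela3a, the bile salt-stimulated lipase Cel and the trypsinogen Prss2. The 3 of these that carry most of the counts are shown with every CACCTG and TTTCCCA match, or its reverse complement, in capitals.
Cela2a, chr4:141826006-141826255, minus strand: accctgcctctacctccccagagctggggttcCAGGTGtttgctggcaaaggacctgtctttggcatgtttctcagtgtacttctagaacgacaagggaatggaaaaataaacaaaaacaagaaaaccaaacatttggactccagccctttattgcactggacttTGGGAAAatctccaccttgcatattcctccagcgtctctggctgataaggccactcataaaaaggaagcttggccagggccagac
Cel, chr2:28563404-28563653, minus strand: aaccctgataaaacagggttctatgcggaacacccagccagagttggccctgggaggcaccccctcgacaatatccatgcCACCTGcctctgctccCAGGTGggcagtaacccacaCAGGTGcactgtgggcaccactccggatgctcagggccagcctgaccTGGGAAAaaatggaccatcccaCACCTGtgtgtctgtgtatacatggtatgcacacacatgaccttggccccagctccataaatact
Prss2, chr6:41521526-41521775, plus strand: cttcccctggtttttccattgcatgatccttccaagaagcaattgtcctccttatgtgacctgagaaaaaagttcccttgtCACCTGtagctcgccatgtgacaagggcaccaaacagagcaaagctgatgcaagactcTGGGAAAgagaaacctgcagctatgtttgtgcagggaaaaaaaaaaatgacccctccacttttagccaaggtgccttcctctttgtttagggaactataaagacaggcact

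The trypsinogens are shown because the counts of their copies have to be read together. The coding sequences of the 6 members and of 2 further copies, Gm5771 and Gm10334, were taken as the longest open reading frame of each GENCODE vM21 transcript. Identity between copies ran from 88.53% (Prss2 and Gm5771) to 99.06% (Prss3 and Gm10334). Prss1 and Gm5771 shared 97.57% of bases, and Try4 and Try5 shared 97.44%. Of all stretches of 50 coding bases, 8.671% of those in Prss2 were also found unchanged in another copy, against 57.37% in Prss1, 73.84% in Prss3 and 76.16% in Gm10334. The sources used here do not state how the counting treated a read that matches several copies, so the counts of single copies are uncertain. Prss2 shares the least with the other copies by this measure. Coding bases 31 to 93 are printed below, with the 15 bases of the activation site, which enterokinase cleaves to make active trypsin, in capitals. The stretch is the same in Prss1, Try4 and Try5, and the same in Prss3 and Gm10334.
Prss1, Try4 and Try5: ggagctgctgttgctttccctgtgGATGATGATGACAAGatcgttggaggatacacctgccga
Prss2: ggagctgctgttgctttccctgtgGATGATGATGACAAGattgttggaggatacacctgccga
Prss3 and Gm10334: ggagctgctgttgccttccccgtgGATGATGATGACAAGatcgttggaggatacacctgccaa
Try10: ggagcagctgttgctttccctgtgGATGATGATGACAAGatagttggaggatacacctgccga

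The share of each library's counts taken by the secreted members differed most between the tables. In RC islets they took 0.385% and 0.503% of gene counts in control and 0.496% and 0.222% in TSC1 KO. In BKS islets they took 0.00463% and 0.00235% in control and 0.0395% and 0.0206% in Db. In β-cells they took 0.00439%, 0.000805% and 0.0128% in neonatal libraries and 0.00805%, 0.00195% and 0.00155% in adult ones. All 4 RC libraries thus lay above every other library and the neonatal and adult libraries overlapped. The tables are separate preparations, so a level set across them has no test here. The 95% Wilson intervals, which cover counting error only, were narrow beside these gaps: 0.217% to 0.227% for the lowest RC library and 0.0386% to 0.0405% for the highest of the others.

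**Figure D1:**
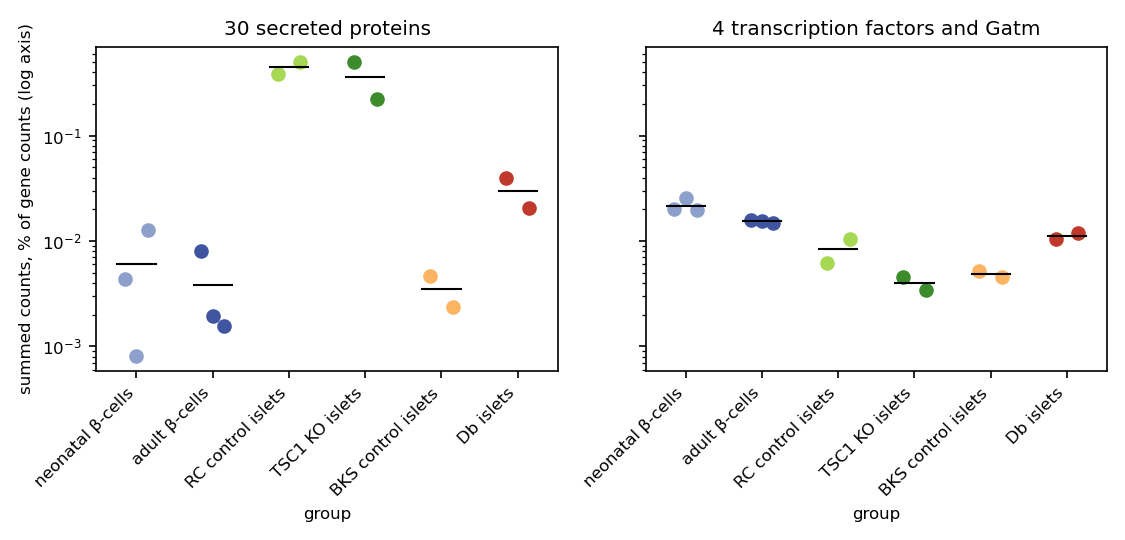
Percent of all gene counts in each library (log axis) taken by the 30 secreted members and by the 4 transcription factors with Gatm, by group; points are libraries and lines are group means. The RC libraries hold between 0.222% and 0.503% in secreted members and no other library holds more than 0.0395%.

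The transcription factors and Gatm did not follow that order. Together they took 0.0195% to 0.0254% of counts in neonatal β-cells and 0.0147% to 0.0159% in adult β-cells. Both ranges lay above all 8 islet libraries, whose highest value was 0.0120%. That order depended on the total used. With Ins1, Ins2 and mitochondrial genes left out of the total, the same genes took 0.0202% and 0.0221% in Db. Those values lay above adult β-cells (0.0162% to 0.0187%) and overlapped neonatal ones (0.0205% to 0.0270%). In β-cells nearly all of the share was Bhlha15 and Gatm. Ptf1a, which defines the acinar lineage, had at most 2 counts in any library and was at 0 in all β-cell libraries. Rbpjl, its acinar partner, had at most 10 counts, and in the β-cell table it had 2 counts in neonatal replicate 1 and 0 in the other 5 libraries.

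Per kilobase of the longest annotated transcript, the leading members in RC control were the colipase Clps at 915 ± 203 CPM per kb (SD, n = 2), the chymotrypsinogen Ctrb1 at 546 ± 147, Cela2a at 471 ± 111 and pancreatic lipase Pnlip at 365 ± 115. Both libraries of Clps lay above both of Ctrb1, while the ranges of Ctrb1, Cela2a and Pnlip overlapped between neighbours in the order. In Db the order was headed by Ctrb1 at 173 ± 94 CPM per kb, Cela2a at 34.6 ± 18.1 and Bhlha15 at 27.8 ± 3.6. In neonatal and adult β-cells Gatm (39.5 ± 5.7 and 31.2 ± 5.8 CPM per kb, SD, n = 3) and Bhlha15 (34.5 ± 12.2 and 22.2 ± 3.8) stood above every secreted member's mean, although Ctrb1 reached 35.8 CPM per kb in 1 neonatal library.

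**Figure D2:**
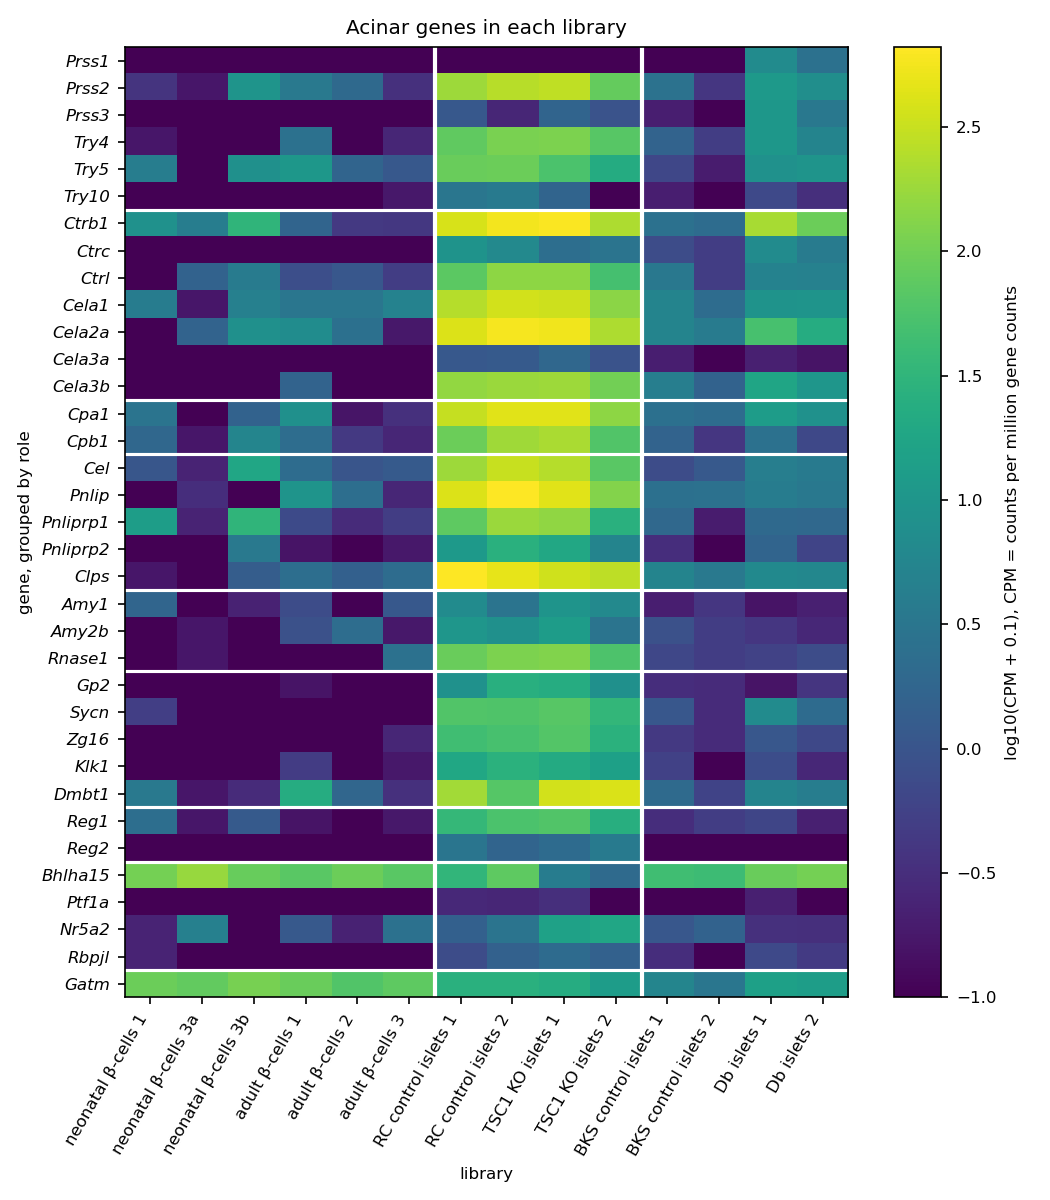
Plain CPM of the 35 members (rows, by role) in the 14 libraries (columns, by group), coloured by log10(CPM + 0.1) as the key gives. Most secreted members are highest in the 4 RC libraries, and the rows of Bhlha15 and Gatm are high in the β-cell libraries.

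The first comparison asked how neonatal and adult β-cells differ. Ctrb1, which encodes chymotrypsinogen B, fell from neonate to adult and was the only member called. Bhlha15 and Gatm were the members with the highest levels at both ages. Many of the remaining secreted members had most of their counts in 1 library of an age, while Cela1 and Clps were even across the adult libraries. In this comparison 6.98% of 14304 genes tested were called (3.38% higher, 3.6% lower). Of the 35 members, 15 passed the filter on low counts, which asks for enough counts in enough libraries, 0 were called higher and 1 lower by edgeR's quasi-likelihood test with Benjamini-Hochberg adjustment. Ctrb1 was also the only 1 with an unadjusted p under 0.05. DESeq2 called the same numbers and limma-voom called 0 in either direction. The median log2 fold change of the 15 was -0.17, against -0.03 over all genes.

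Ctrb1 stood at 8.13, 3.83 and 29.4 scaled CPM in neonatal replicates 1, 3a and 3b and at 1.74, 0.357 and 0.320 in adult replicates 1 to 3. Every neonatal library was above every adult one. The log2 fold change was -4.07 ± 0.93 (SE), 16.8-fold lower in adults (adjusted p = 0.0143). It was -2.87 without neonatal replicate 3b and -5.31 without adult replicate 1. The call did not hold without neonatal replicate 3b (adjusted p = 0.207), without adult replicate 2 (0.0747) or without adult replicate 3 (0.0690). The adult values rest on 26, 5 and 4 counts. Groups that do not overlap were found for 27.4% of all genes tested and for 2 of the 15 members, Ctrb1 and Clps. Clps had 1, 0 and 19 counts in neonatal and 38, 21 and 27 in adult libraries, with an adjusted p of 0.545.

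Bhlha15 was measured at 101, 161 and 81.3 scaled CPM in neonatal and at 75.3, 101 and 71.0 in adult β-cells. The groups overlapped, and its log2 fold change was -0.47 ± 0.25 (adjusted p = 0.301). Gatm, which makes the creatine precursor guanidinoacetate, was at 88.6, 77.3 and 101 scaled CPM in neonatal and at 95.9, 65.9 and 76.0 in adult β-cells. Its groups overlapped as well (-0.17 ± 0.22, adjusted p = 0.742). Nr5a2 had 2, 64 and 0 counts in neonatal and 17, 2 and 33 in adult libraries, and the adult values lay within the neonatal range.

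Several other secreted members differed widely between libraries of an age. Cela2a had 0, 22 and 127 counts in neonatal and 117, 38 and 1 in adult libraries. Pnlip had 0, 3 and 0 in neonatal and 155, 35 and 2 in adult libraries. Pnlip did not pass the filter, nor did Pnliprp1, which had 196, 2 and 480 neonatal counts. Cpa1, a carboxypeptidase, had 42, 0 and 23 counts in neonatal and 133, 1 and 3 in adult libraries. Cela1 was uneven in neonates, at 58, 1 and 69 counts, and even in adults, at 50, 46 and 61. Cel had 14, 2 and 284 and then 35, 14 and 14. Prss2 had 4, 1 and 145 and then 55, 29 and 3. Dmbt1, a scavenger protein of mucosal secretions, had 50, 1 and 3 and then 372, 26 and 3. Try5 had 60, 0 and 126 counts in neonatal and 168, 24 and 13 in adult libraries. Try4 had 1, 0 and 0 and then 41, 0 and 2. Cela3b had 25 counts in adult replicate 1 and Sycn 6 in neonatal replicate 1, and both were at 0 in the other 5 libraries. Ctrc, Prss1 and Prss3 were at 0 in all 6. The leading secreted member changed between libraries: it was Pnliprp1 in neonatal replicate 1 with 196 counts, Ctrb1 in neonatal replicates 3a and 3b with 57 and 483, Dmbt1 in adult replicate 1 with 372, and Cela1 in adult replicates 2 and 3 with 46 and 61.

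Across the 15 pairs of β-cell libraries, Spearman's correlation of the 30 secreted members' counts ran from 0.293 to 0.795. Among the 4 RC libraries it ran from 0.904 to 0.969 over 6 pairs. These are correlations across genes within pairs of libraries that share depth and annotation, at far fewer counts in β-cells. The sum of 12 duct markers in the β-cell table was 1384 to 2176 CPM in neonatal and 678 to 829 CPM in adult libraries. Of these markers 11 were tested and 5 were called lower in adults (Krt19, Krt7, Krt18, Krt8 and Spp1). Onecut1 was at 0 in all but neonatal replicate 3b. Mesenchymal markers (7 genes, 6 tested, 0 called by edgeR's quasi-likelihood test, 0 at an unadjusted p under 0.05) summed to 177 CPM in neonatal replicate 3b, the library with most Ctrb1, and to 18.6 and 6.07 CPM in neonatal replicates 1 and 3a and 9.29 to 35.3 CPM in adults. All 7 were detected in replicate 3b, and Lum was at 0 in the other neonatal libraries. The part of the duct and mesenchymal markers in the Ctrb1 result was not tested.

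**Figure D3:**
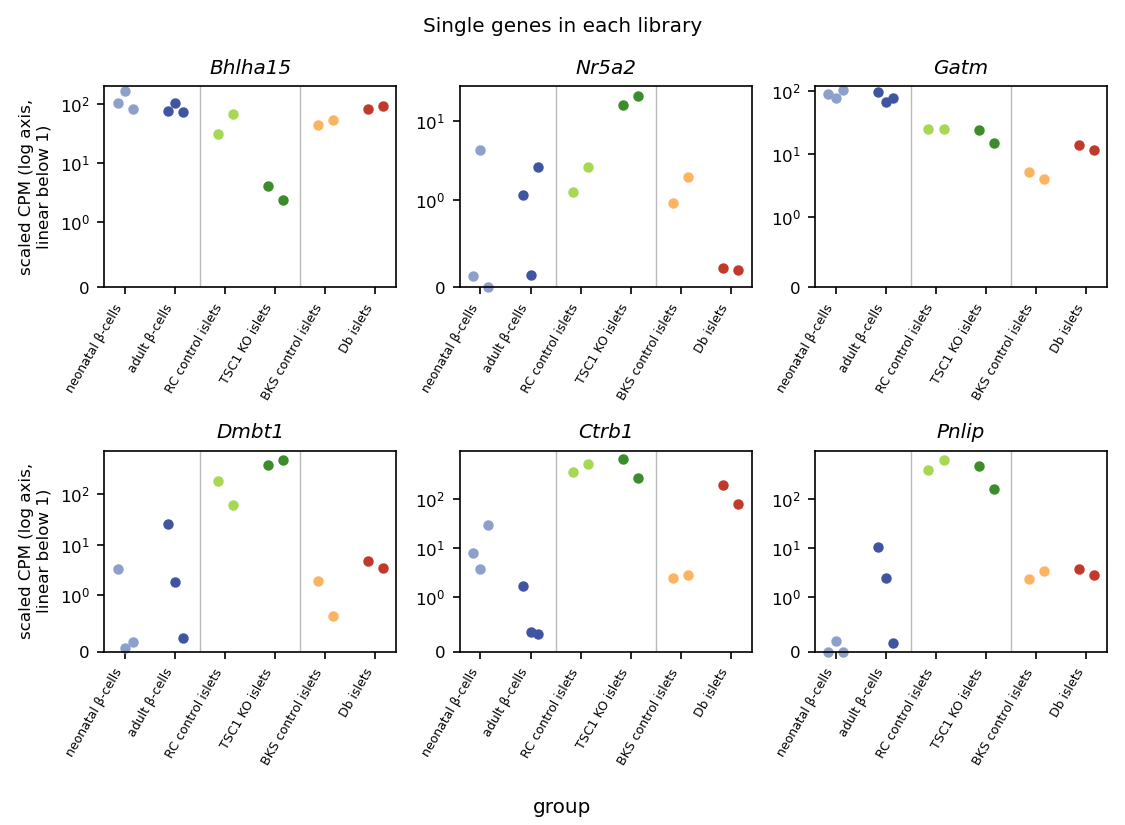
Scaled CPM (scaled by TMM) of Bhlha15, Nr5a2, Gatm, Dmbt1, Ctrb1 and Pnlip in every library, by group, on a log axis that is linear below 1; points are libraries. Bhlha15 is low and Nr5a2 high in both TSC1 KO libraries, and Ctrb1 is at 80.0 and 196 in Db against 2.46 and 2.82 in BKS control.

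The second comparison asked how islets labelled TSC1 KO differ from their controls. The digestive enzymes were abundant in both groups and no secreted member was called, nor was Gatm. Of the transcription factors, Bhlha15 fell 14.99-fold and Nr5a2 rose 9.24-fold. In this comparison 18.6% of 14515 genes tested were called (8.63% higher, 10% lower). Of the members, 30 were tested, with 1 higher and 1 lower. Their median log2 fold change was -0.04, against -0.00 over all genes. Unadjusted p-values under 0.05 were given by 5 of the 30: Bhlha15, Nr5a2, Dmbt1, Ctrc and Try5. Groups did not overlap for 9 of the 30 members, against 67.7% of all genes tested.

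Bhlha15 was measured at 30.5 and 67.4 scaled CPM in RC control (193 and 458 counts) and at 3.96 and 2.34 in TSC1 KO (17 and 7 counts). Both TSC1 KO libraries lay far below both controls. The log2 fold change was -3.91 ± 0.52 (adjusted p = 0.0138). Without TSC1 KO replicate 1 the log2 fold change was -4.38, and without replicate 2 it was -3.63. The call did not hold in those 2 fits. Without RC control replicate 1 the log2 fold change was -4.35, and without replicate 2 it was -3.22. Each of these fits left 1 library in a group. Sums of β-cell markers, given above, moved with Bhlha15, and 8 of 9 of them were called lower. Other islet endocrine markers summed to 35662 and 29598 CPM in RC control and to 7348 and 2492 CPM in TSC1 KO. Of these 9 markers, 6 were called lower and 1 higher. In plain CPM, Bhlha15 was at 69.3 to 168 in the β-cell libraries and at 33.0 and 73.7 in RC control, ranges that overlapped. The part of the β-cell and other endocrine markers in the fall of Bhlha15 was not tested.

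Nr5a2, an orphan nuclear receptor that acts with PTF1 on enzyme genes and is also active in stomach, gut, liver and ovary, was at 1.26 and 2.65 scaled CPM in RC control (8 and 18 counts) and at 15.8 and 21.1 in TSC1 KO (68 and 63 counts). Each TSC1 KO library was above each control. The log2 fold change was 3.21 ± 0.44 (adjusted p = 0.0131). It was 3.40 without TSC1 KO replicate 1 and 2.99 without replicate 2, and the call did not hold in those 2 fits. Without RC control replicate 1 it was 2.78, and without replicate 2 it was 3.83. Each of these fits left 1 library in a group. Rbpjl had 4 and 9 counts in RC control and 9 and 5 in TSC1 KO, and Ptf1a had 1 and 1 and then 1 and 0. Of 11 stomach mucosa markers 5 were tested and Gkn3, Pgc, Muc6 and Tff2 were called higher. Their list summed to 30.5 and 26.7 CPM in RC control and 191 and 276 CPM in TSC1 KO. Gkn1, Gkn2, Muc5ac, Tff1 and Atp4b, which mark the stomach's surface and acid-secreting cells, were at 0 in all 4 libraries. Atp4a, also a marker of acid-secreting cells, had counts in all 4 and went the other way. It was lower in TSC1 KO without overlap, at an unadjusted p under 0.05 by edgeR's quasi-likelihood test, and was not called. Duct markers summed to 2123 and 670 CPM in RC control and to 3186 and 3959 CPM in TSC1 KO, with 2 of 12 called higher, Onecut1 among them, 0 lower and no marker at 0. The part of these markers in the rise of Nr5a2 was not tested.

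Among the trypsinogens, Prss2 was at 167 and 237 scaled CPM in RC control and at 288 and 95.65 in TSC1 KO. The 2 controls lay between the 2 TSC1 KO libraries. Try5 was at 82.8 and 83.3 in RC control and at 55.5 and 26.4 in TSC1 KO, groups that did not overlap (-1.01 ± 0.35, adjusted p = 0.0985). Try4 was at 72.5 and 102 in RC control and at 119 and 79.3 in TSC1 KO. Prss1 was at 0 in all 4 RC libraries, which allows up to 0.513 CPM in RC control replicate 1 and 0.855 CPM in TSC1 KO replicate 2, and Prss3 had 6 and 1 counts in RC control and 7 and 3 in TSC1 KO. Try10 had 18 and 22 counts in RC control and 7 and 0 in TSC1 KO, without overlap (-1.70 ± 0.93, adjusted p = 0.239).

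Ctrb1 was at 358 and 522 scaled CPM in RC control and at 655 and 266 in TSC1 KO. Cela2a was at 387 and 537.5 in RC control and at 555 and 260 in TSC1 KO. Cela1, an elastase, was at 228 and 337 in RC control and at 351 and 171 in TSC1 KO. In all 3, TSC1 KO replicate 1 was the highest library and TSC1 KO replicate 2 the lowest. Cela3b was at 146 and 162 in RC control and at 188.5 and 121 in TSC1 KO. Ctrc, which regulates trypsinogen activation, was at 8.53 and 5.74 in RC control and at 2.33 and 3.34 in TSC1 KO (-1.34 ± 0.46, adjusted p = 0.0910), without overlap.

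Cpa1 was at 283 and 412 scaled CPM in RC control and at 453 and 174 in TSC1 KO. Cel was at 167 and 286 in RC control and at 257 and 81.3 in TSC1 KO. Pnlip was at 390 and 606 in RC control and at 463.5 and 154 in TSC1 KO. Clps, the cofactor of Pnlip, was at 597 and 431 in RC control and at 361 and 327 in TSC1 KO, with both TSC1 KO libraries below both controls (-0.58 ± 0.31, adjusted p = 0.235). Amy1, an amylase, was at 6.32 and 2.65 in RC control and at 9.555 and 7.36 in TSC1 KO, without overlap (0.93 ± 0.50, adjusted p = 0.234). It passed the threshold without RC control replicate 1 (1.68, adjusted p = 0.0478). Sycn, a zymogen granule protein, was at 56.1 and 54.1 in RC control and at 69.9 and 39.5 in TSC1 KO. Gatm was at 24.5 and 24.4 in RC control and at 24.004 and 15.1 in TSC1 KO (-0.31 ± 0.27, adjusted p = 0.456).

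Dmbt1 went against the enzymes' order of libraries. It was at 179 and 60.3 scaled CPM in RC control and at 376 and 464.5 in TSC1 KO, with no overlap (1.81 ± 0.54, adjusted p = 0.0703). It passed the threshold with DESeq2 (adjusted p = 0.00352), with limma-voom (0.0494) and without RC control replicate 1 (0.00155) or 2 (0.0299). It did not pass without TSC1 KO replicate 1 (0.209) or 2 (0.289), with a replicate block (0.0795), with library size alone (0.0826), without the filter (0.0672) or with DESeq2 size factors (0.0672). Its share of the secreted members' counts was 5.0% and 1.3% in RC control and 7.4% and 17.9% in TSC1 KO. In the mouse Dmbt1 is also made by duct and gut epithelium, and the duct marker sums above moved with it. Their part in it was not tested.

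Of a further list of 22 acinar secretory genes, 21 were matched, 10 were tested in the RC table and 0 were called by edgeR's quasi-likelihood test, with 3 at an unadjusted p under 0.05. In β-cells 5 of them were tested and 0 called, with 0 at an unadjusted p under 0.05.

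The third comparison asked how Db islets differ from BKS control islets. Ctrb1 rose 52.3-fold and Cela2a 6.69-fold, both serine protease genes with over 10 counts in each control. Try5 rose 22.4-fold, from 5 and 1 counts in the controls. Pancreatic lipase and colipase, which stood beside Ctrb1 in the BKS controls, were not called. Bhlha15 and Gatm rose and Nr5a2 fell. In this comparison 48.2% of 14369 genes tested were called (24.3% higher, 23.9% lower). Of the 35 members, 22 were tested, 16 were called higher and 1 lower. Among the 16, Ctrc, Prss1, Prss3, Sycn and Try5 had under 10 counts in both controls and passed the filter through the Db libraries, and Nr5a2 had under 10 counts in both Db libraries, so these had to differ to be tested. The median log2 fold change of the 22 was 1.85, against -0.03 over all genes, and is a description of the tested members only. Groups did not overlap for 18 of the 22, against 74.7% of all genes tested.

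The 13 members not tested had at most 27 counts in a BKS library. Amy1, Amy2b, Rnase1, Gp2, Reg1 and Zg16, which had counts in all 4 RC libraries, were among them, with 1 to 17 counts in each Db library. Pnliprp2 and Klk1 also had counts in all 4 RC libraries and were not tested. The lipase relative Pnliprp2 had 2 and 0 counts in BKS control and 27 and 9 in Db, a ratio of 7.96 with a counting interval from 2.05 to 68.3. Klk1 had 4 and 0 counts in BKS control and 12 and 3 in Db. Reg2 was at 0 in all 4 BKS libraries, which allows up to 0.333 CPM in the shallowest of them.

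**Figure D4:**
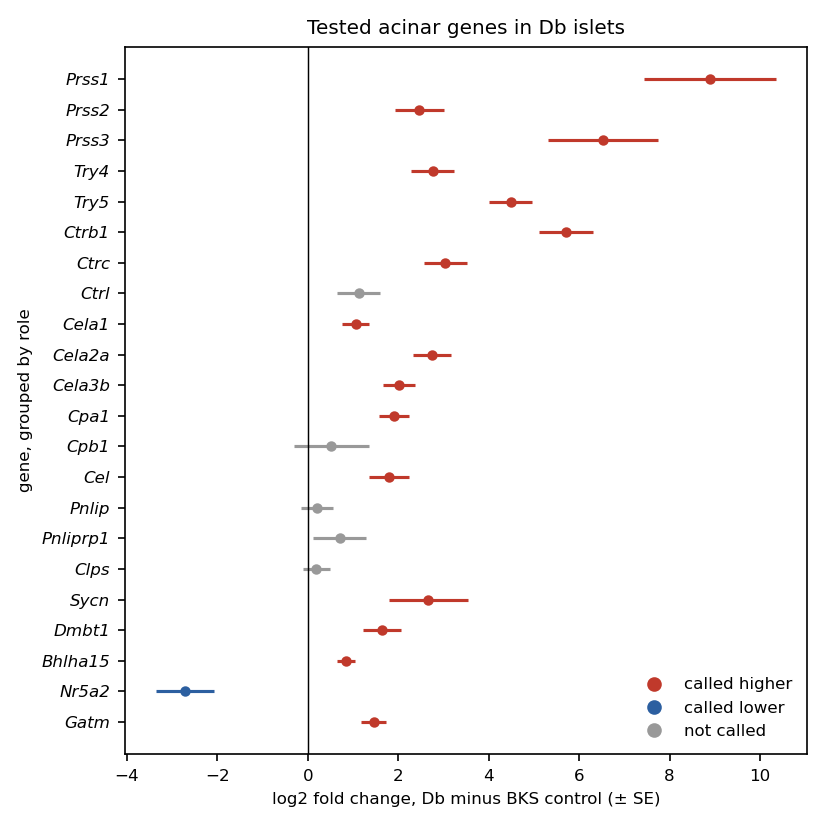
Log2 fold change, Db against BKS control, with SE bars, of the 22 tested members ordered by role; red points were called higher, blue lower and grey not called. All trypsinogens, chymotrypsinogens and elastases shown lie to the right of the lipases Pnlip and Pnliprp1 and of Clps; the fitted value of Prss1 is set against controls at 0.

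Ctrb1 was at 2.46 and 2.82 scaled CPM in BKS control (23 and 22 counts) and at 196 and 80.0 in Db (3548 and 1650 counts). Both Db libraries were far above both controls (5.71 ± 0.60, adjusted p = 0.00104). Cela2a was at 5.03 and 5.01 in BKS control and at 47.4 and 20.0 in Db (2.74 ± 0.42, adjusted p = 0.000771). Cela3b was at 4.07 and 1.92 in BKS control and at 16.1 and 8.73 in Db (2.02 ± 0.36, adjusted p = 0.000124). In these 3 genes Db replicate 1 was the higher of the Db libraries. Cela1 was at 5.03 and 2.82 in BKS control and at 8.46 and 8.10 in Db (1.06 ± 0.30, adjusted p = 0.00558), and its adjusted p was 0.0646 without BKS control replicate 2. Ctrc was at 0.643 and 0.513 in BKS control and at 6.47 and 3.30 in Db (3.04 ± 0.48, adjusted p = 1.09e-05). Ctrl, the chymotrypsin-like protease, was at 3.21 and 0.513 in BKS control and at 4.48 and 4.02 in Db (1.127 ± 0.481, adjusted p = 0.0646). It was called under 6 of 10 alternatives, among them a replicate block (adjusted p = 0.00571), and its log2 fold change ran from 0.43 without BKS control replicate 2 (0.379) to 3.06 without BKS control replicate 1 (6.22e-06).

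The 5 trypsinogens tested were called higher, as were 24.3% of all genes, but Prss1, Prss3 and Try5 could be tested only because of their counts in Db. Prss2, the copy with least shared sequence, was at 2.57 and 0.385 scaled CPM in BKS control and at 10.7 and 6.50 in Db (2.46 ± 0.54, adjusted p = 0.00391). With DESeq2 its adjusted p was 0.0694. Try4 was at 1.499 and 0.513 in BKS control and at 9.79 and 4.46 in Db (2.76 ± 0.48, adjusted p = 0.000152). Try5 was at 0.535 and 0.128 in BKS control and at 7.85 and 8.14 in Db (4.49 ± 0.47, adjusted p = 1.31e-08). The 2 Db libraries lay above the controls in each of them.

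Prss1 was at 0 in both BKS controls and at 6.36 and 2.18 scaled CPM in Db (115 and 45 counts), at least 12.1-fold higher when each control is set at the floor of 3 counts (adjusted p = 0.000836). Prss3 had 1 and 0 counts in BKS control and 175 and 59 in Db, a ratio of 103.5 with a counting interval from 18.4 to 4106 (adjusted p = 0.00372). Gm5771 and Gm10334, the copies closest to these genes, were at 0 in both controls and had 216 and 61 and 240 and 46 counts in Db. They were at least 21.1-fold and 21.9-fold higher by the same floor, with adjusted p = 0.170 and 0.319.

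These 4 copies stood apart from the other trypsinogens across the tables. In Db they held 746 of 1268 counts (58.8%) and 211 of 609 counts (34.6%) of the 8 copies. In the 4 RC libraries they held 10 of 2066, 6 of 2897, 11 of 2002 and 5 of 607, or 0.207% to 0.824%. The BKS controls had 45 and 8 counts over the 8 copies, of which 1 and 0 fell on the 4. Neonatal replicate 3b had 38 of 309 counts on them, all in Gm5771. The copies' shared stretches, printed above, bear on how these counts were divided, and their part in the difference was not tested.

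Cpa1 was at 2.36 and 2.82 scaled CPM in BKS control and at 12.0 and 7.37 in Db (1.90 ± 0.33, adjusted p = 2.90e-05). Cpb1, the other carboxypeptidase, was at 1.499 and 0.385 in BKS control and at 2.38 and 0.485 in Db, with overlap (0.52 ± 0.83, adjusted p = 0.641). Cel was at 0.643 and 1.41 in BKS control and at 3.87 and 3.15 in Db (1.80 ± 0.44, adjusted p = 0.00127). Pnlip was at 2.36 and 3.34 in BKS control and at 3.65 and 2.86 in Db (0.20 ± 0.35, adjusted p = 0.662). Clps was at 5.03 and 4.49 in BKS control and at 5.97 and 4.95 in Db (0.19 ± 0.30, adjusted p = 0.620). For Pnlip and Clps 1 Db library lay between the controls. Pnliprp1, a relative of Pnlip, was at 1.82 and 0.128 in BKS control and at 1.77 and 1.60 in Db (0.70 ± 0.59, adjusted p = 0.336).

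The makeup of the secreted counts differed between the groups. Ctrb1 made up 5.5% and 9.2% of secreted members' counts in BKS control and 53.1% and 45.3% in Db, and between 10.1% and 12.9% in the 4 RC libraries. There were 1.05 and 0.846 counts of Ctrb1 for each count of Pnlip in BKS control, 53.8 and 28.0 in Db, and 0.861 to 1.72 in RC islets. Lipases and colipase together made up 22.5% and 30.7% in BKS control, 4.5% and 7.4% in Db and 23.1% to 34.7% in RC islets. Chymotrypsinogens and elastases together made up 45.9% and 44.5% in BKS control, 75.6% and 70.4% in Db and 33.6% to 37.5% in RC islets. These role totals are shares of counts that include Ctrb1, so they are not separate from the change in Ctrb1's own share. Spearman's correlation of the 30 secreted members' counts was 0.922 between the 2 Db libraries, 0.533 to 0.720 between Db and RC libraries and 0.802 to 0.876 between BKS control and RC libraries, at 238 and 418 secreted counts in the BKS controls. These are descriptions across genes and carry no test.

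**Figure D5:**
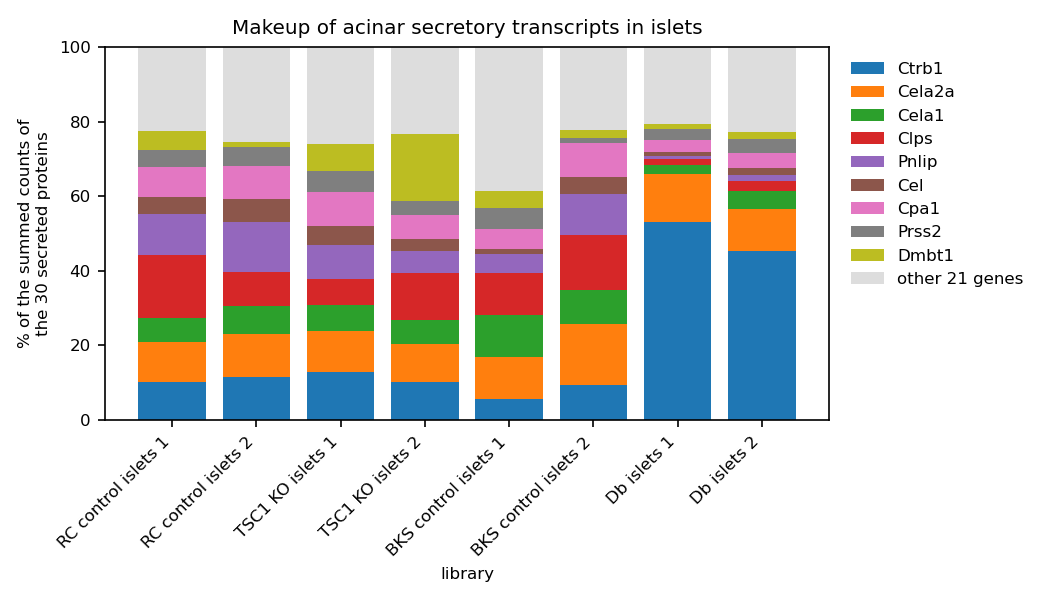
Percent of the summed counts of the 30 secreted members held by 9 named genes and by the other 21 together, as stacked bars, 1 for each islet library. Ctrb1 holds 53.1% and 45.3% in the Db libraries and between 5.5% and 12.9% in the other 6.

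Sycn was at 0.964 and 0.257 scaled CPM in BKS control and at 6.47 and 1.79 in Db (2.67 ± 0.87, adjusted p = 0.0432), and its adjusted p was 0.112 without Db replicate 1. Dmbt1 was at 1.93 and 0.642 in BKS control and at 4.81 and 3.49 in Db (1.64 ± 0.42, adjusted p = 0.00227). Gatm was at 5.14 and 3.98 in BKS control and at 13.7 and 11.5 in Db (1.46 ± 0.28, adjusted p = 9.87e-05). Each of the 3 was higher in both Db libraries than in either control.

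Bhlha15 was at 43.7 and 53.1 scaled CPM in BKS control and at 82.3 and 90.9 in Db, 1.79-fold higher (0.84 ± 0.20, adjusted p = 0.00117). It was the member with the most counts in both controls, at 408 and 414. Nr5a2 had 9 and 15 counts in BKS control and 4 and 4 in Db, 0.964 and 1.92 against 0.221 and 0.194 scaled CPM (-2.72 ± 0.64, adjusted p = 0.000992). The Db libraries were below the controls, at counts near the floor. Rbpjl had 2 and 0 counts in BKS control and 10 and 6 in Db, a ratio of 3.54 with a counting interval from 0.832 to 31.7. Ptf1a had 0 and 0 in BKS control and 2 and 0 in Db.

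Of the further acinar list 8 genes were tested in Db islets, with 3 called higher and 1 lower, against 24.3% and 23.9% of all genes. Rab3d, a GTPase of secretory granules, rose from 94.9 and 84.8 to 249 and 308 scaled CPM (1.63 ± 0.21, adjusted p = 4.48e-07). Vamp8, a granule fusion protein, rose from 25.4 and 19.0 to 62.6 and 69.2 (1.57 ± 0.21, adjusted p = 1.03e-06). Tmed6, a trafficking protein, rose from 0.535 and 0.642 to 2.76 and 3.78 (2.47 ± 0.48, adjusted p = 0.000125). Rab3d and Vamp8 were also found at 384 to 576 and 57.4 to 83.2 scaled CPM in the β-cell libraries.

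Insulin transcripts took 61.0% and 70.0% of gene counts in BKS control and 48.3% and 45.5% in Db. With Ins1, Ins2 and mitochondrial genes left out of the total, the secreted members took 0.0120% and 0.00800% in BKS control and 0.0769% and 0.0379% in Db, again without overlap. Duct markers summed to 650 and 463 CPM in BKS control and to 1344 and 1452 CPM in Db. Of 11 tested, 5 were called higher, among them Krt7, Krt18, Krt8 and Cldn4, and Sox9, Spp1 and Tspan8 were called lower, and none was at 0. Mesenchymal markers summed to 173 and 204 CPM in BKS control and to 546 and 550 CPM in Db, with Col1a1, Col1a2, Col3a1 and Pdgfrb called higher of 6 tested. Of 9 β-cell markers, 6 were called lower and Iapp higher. The part of these cell types in the members' changes was not tested.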

How the data were processed

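Libraries were made with the SMARTer Stranded kit from Trizol-extracted RNA, per the labels' protocols. The authors deposited raw read counts per Ensembl gene in 3 tables, not normalised. The submitters' processing notes name cutadapt 1.13, GSNAP, HTSeq 0.7.1 and DESeq2 1.16.0, with NCBIM37 and mm9. The strand setting and the handling of reads that match several genes are not given in the sources used here. Rows that name no gene were left out. In the β-cell and BKS tables gene rows held 24.52% to 44.27% of the reads. Symbols matched 32620 of the identifiers (87.4%).

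Each comparison was fitted separately in edgeR 4.0.16 (R 4.3.3) by its quasi-likelihood test (robust, two-sided) after filterByExpr (minimum count 10, total 15) and TMM scaling. P-values were adjusted by Benjamini-Hochberg over all genes tested, and a gene under 0.05 is called. Scaled CPM uses TMM library sizes; plain CPM and CPM per kb use total gene counts. Log2 fold changes carry their SE. Shares have Wilson intervals, and the limit for a count of 0 is 3 counts; both cover counting error only. Alternatives were DESeq2 1.42.0, its size factors in edgeR, limma-voom (limma 3.58.1), library size alone, no filter, a replicate block and leaving out each library. Scripts were tested on simulated data.

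Among the neonatal columns 2 carry number 3 and are called 3a and 3b. Values in every library are given for members called in any comparison, the 10 with the highest mean CPM and the 4 transcription factors; others are given by range or count, and some where groups did not overlap. The members and lists were chosen with earlier results of these data known. No protein sequences were used here; coding stretches stand in their place. Results on some genes of the comparison lists are not reported here.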

Additional observations from a re-analysis of the deposited data

How the results depend on the processing

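For neonatal and adult β-cells, without the filter on low counts 1 member was called higher and 2 lower, and with limma-voom 0 were called lower. Leaving out single libraries gave 0 to 1 higher and 0 to 2 lower; the called-lower count was 0 without neonatal replicate 3b, adult replicate 2 or adult replicate 3, and 2 without neonatal replicate 3a. The log2 fold change of Nr5a2 turned to 1.60 with limma-voom, 4.17 without neonatal replicate 3a and 0.34 without adult replicate 2, in a range from -1.20 to 4.17 over libraries left out. For TSC1 KO, DESeq2 and limma-voom each called 2 members higher. Leaving out single libraries gave 0 to 3 higher and 0 to 1 lower, with 0 in either direction without TSC1 KO replicate 1 or 2, fits in which 0 of all genes were called. For Db, 15 to 19 members were called higher over all alternatives. Over libraries left out, Pnlip ran from -0.0127 (without BKS control replicate 1) to 0.49, Cpb1 from -0.96 (without Db replicate 1; -0.07 without BKS control replicate 2) to 1.86, and Pnliprp1 from -0.0827 (without BKS control replicate 2) to 3.66 (without BKS control replicate 1, where it was called). The log2 ratio of the summed share of all 35 members was -0.53 in adults, -0.32 in TSC1 KO and 2.30 in Db. It turned to 0.15 in TSC1 KO without TSC1 KO replicate 2 and ran from -1.01 to 0.15 over libraries left out. In Db it was 1.69 without Ins1, Ins2 and mitochondrial genes in the total and 3.11 for the 30 secreted members alone, a choice made after seeing the data. Of the single-gene values under alternatives, 324 kept their direction and side of the threshold, 12 gained a call, 11 lost one and 7 reversed. The causes were not tested. Islet libraries of the same replicate number did not deviate together (correlation of deviations -0.05 for TSC1 KO and -0.04 for Db). With 2 libraries in each group, this cannot show whether they were paired by design. With a replicate block 17 members were called higher and 1 lower in Db, and 1 and 1 in TSC1 KO. For β-cells no paired analysis was possible because 2 neonatal columns share a number. Scaling by library size alone shifted the median log2 fold change of all genes to -0.19, -0.25 and 0.29 in the 3 comparisons. The filter left 20, 5 and 13 of the 35 members untested in the β-cell, RC and BKS tables. Those untested had at most 9 counts in an RC library and 27 in a BKS library, but up to 480 in a β-cell library, where counts were uneven.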
